A study of Mus musculus with 6 samples.

Results

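Acta1, Actc1, Actn2, Actn3, Myoz1, Myoz2, Myoz3, Ldb3, Myot and Tcap encode the actins of striated muscle and proteins of the Z-disc that anchor or surround them. These 10 genes were taken by symbol from a table of 57010 genes, and all 10 were measured. No threshold on their values was used, but they were chosen with earlier results of these data known. Expression was compared in gastrocnemius, a calf muscle of mostly fast fibres, from NOD/SCID/IL2Rγ-null (NSG) mice, an immunodeficient strain without mature lymphocytes. All mice carried a subcutaneous flank tumour of human MDA-MB-231 breast cancer cells with a knockdown of Rab27a, a GTPase needed for the release of exosomes. In the radiotherapy group (n = 3) a tumour of about 800 mm3 received a single local dose of 10 Gy, and the contralateral gastrocnemius was taken 3 days later. In the control group (n = 3) the tumours were not treated, and the labels give no tumour volume, day of sampling or sham irradiation for it. The knockdown was thus present in both groups, and no group here carried a tumour without it. The sources used here give neither age nor sex of the mice. They also do not state whether each sample is a mouse of its own, so p-values measure spread between samples that may be technical.

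The sarcomere is the contractile unit of striated muscle, and the Z-disc is the boundary where thin filaments of neighbouring sarcomeres meet. Alpha-actinin crosslinks the actin filaments there, and smaller proteins such as myozenins, myotilin, telethonin and the PDZ-LIM protein of Ldb3 bind alpha-actinin, titin or filamin and link the Z-disc to signalling proteins such as calcineurin. Several of the genes come in fibre type pairs: Actn3 and Myoz1 are typical of fast fibres, while Myoz2 is typical of slow fibres and heart, and Actn2 is made in all fibres and in heart.

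Upstream flanking sequence is shown for the members with an entry in the RefSeq promoter table (build GRCm38.p6), whatever the direction of their values. Each run gives the 250 bases before the annotated start, 5′ to 3′ on the gene's strand. Capitals mark a CArG box, the binding motif of serum response factor (SRF), a regulator of actin genes.
Acta1 (chr8:123894776-123895025, minus strand): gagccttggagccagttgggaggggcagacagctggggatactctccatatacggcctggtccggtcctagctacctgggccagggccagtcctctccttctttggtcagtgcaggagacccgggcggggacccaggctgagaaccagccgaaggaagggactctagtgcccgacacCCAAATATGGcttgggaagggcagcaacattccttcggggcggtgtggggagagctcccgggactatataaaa
Actc1 (chr2:114052876-114053125, minus strand): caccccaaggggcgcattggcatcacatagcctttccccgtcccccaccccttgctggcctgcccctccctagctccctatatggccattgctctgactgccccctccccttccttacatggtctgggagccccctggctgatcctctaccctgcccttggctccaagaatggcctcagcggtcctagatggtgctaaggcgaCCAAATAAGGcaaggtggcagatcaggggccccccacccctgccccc
Ldb3 (chr14:34588682-34588931, minus strand): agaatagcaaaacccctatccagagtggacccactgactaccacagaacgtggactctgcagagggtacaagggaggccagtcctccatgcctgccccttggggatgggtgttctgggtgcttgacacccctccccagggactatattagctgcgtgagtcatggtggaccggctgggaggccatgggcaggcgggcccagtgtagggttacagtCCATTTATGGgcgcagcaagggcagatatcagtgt
Actn2 (chr13:12340733-12340982, minus strand): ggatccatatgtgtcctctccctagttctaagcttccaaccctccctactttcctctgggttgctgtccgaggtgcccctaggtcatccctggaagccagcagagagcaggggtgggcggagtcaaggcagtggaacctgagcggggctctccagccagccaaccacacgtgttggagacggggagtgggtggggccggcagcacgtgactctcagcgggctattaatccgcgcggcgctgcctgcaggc
Myoz2 (chr3:123034988-123035237, minus strand): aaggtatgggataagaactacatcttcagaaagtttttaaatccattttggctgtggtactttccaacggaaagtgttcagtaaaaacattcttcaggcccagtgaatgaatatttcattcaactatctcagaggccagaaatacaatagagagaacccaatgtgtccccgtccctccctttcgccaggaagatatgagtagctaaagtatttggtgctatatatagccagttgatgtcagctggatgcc
Both strands were searched for the CArG box, the MEF2 site and the E-box (CANNTG, the motif of myogenic factors), and no matches overlapped. One CArG box each was found for Acta1, Actc1 and Ldb3, with its first base 73, 47 and 35 bases before the start, and 1.47% of all 32851 windows of this length held one. Ldb3 has another annotated start, whose window holds the same CArG box. The Actn2 and Myoz2 windows held no match to the CArG box. The Myoz2 window held a MEF2 site, CTATATATAG, whose first base lies 33 bases before the start, against 2.92% of all windows. E-boxes numbered 2 for Acta1, 3 for Actn2 and 2 for Myoz2, and 66.2% of all windows held at least 1. These are matches of letters and show no binding. No promoter is shown for Actn3, Myoz1, Myoz3, Myot and Tcap.

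Values are TPM, in which reads are corrected for transcript length and every library is set to the same total, so the depth of each library is unknown. The fast fibre genes that identify the tissue made up 7.74 to 15.0% of TPM, and the slow fibre genes 0.0939 to 0.267%. The summed share of mitochondrial and predicted (Gm) genes lay between 24.9 and 30.3% in controls and between 31.3 and 46.7% in radiotherapy libraries, the most in radiotherapy 2. A larger share for some genes lowers the share of all others, so results are also given after other scalings. Of the other cell types, the summed TPM of 5 red blood cell genes was 3352 to 7203 in controls and 930 to 1618 after radiotherapy, and that of 5 tendon genes 19.8 to 40.8 and 11.8 to 17.2. The summed levels of the leukocyte, fibroblast, endothelial, smooth muscle, adipocyte, Schwann cell, cardiac and regenerating muscle lists overlapped between the groups, and no marker was at 0 in all 6 libraries. Single libraries stood apart, with Schwann cell genes at 592 TPM in radiotherapy 3, adipocyte genes at 2242 in radiotherapy 1 and leukocyte genes at 1744 in control 1. The next highest sums were 183, 892 and 744 TPM. All 4 tested adipocyte and all 5 tested Schwann cell genes had positive log2 fold changes, and all 5 tested leukocyte genes negative ones. Of all tested genes, 67.9% were negative. The part of these cell types in the results below was not tested. In bulk muscle, fewer cells of a type and less RNA per cell cannot be told apart.

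Skeletal actin and most Z-disc genes had lower values after radiotherapy, but none of the 10 passed the test. Log2 fold changes, computed as radiotherapy minus control of log2(TPM + 1), were negative for 8 and positive for 2 of them (Actn2 and Myoz2), with a median of −0.49. Over the 11375 genes tested the median was −0.11 and 67.9% were negative. With limma and Benjamini-Hochberg adjustment over all genes tested, 0 members and 0 genes in all passed an adjusted p of 0.05 (background 0%), and members had adjusted p from 0.977 to 0.984. At an unadjusted limma p under 0.05, 5 of the 10 were lower (Acta1, Tcap, Actn3, Myoz3 and Myoz1), against 2.86% of all tested genes, and 0 were higher, against 0.967%. After the removal of mitochondrial and predicted genes, Acta1 was lower at that p, against 0.773% of tested genes, and Actn2 was higher, against 4.49%. With quantile normalization Tcap was lower (2.49% of tested genes) and Actn2 higher (2.74%). With median-of-ratios scaling Acta1 was lower (3.02%) and no member was higher (2.13%).

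In 4 of the 10 genes (Acta1, Actn3, Ldb3 and Tcap) each radiotherapy library was under each control library. Of all tested genes, 7.54% were lower in this way, and of the 833 with a mean of at least 100 TPM, a level chosen after the values were seen, 15.5% were. None of the members was higher in this way, against 1.7% of tested genes. This count depended on the scaling: Acta1 alone remained separate with median-of-ratios scaling (6.66% of tested genes lower without overlap) and after the removal of mitochondrial and predicted genes (1.98%), and none of the 10 was lower with quantile normalization (5.22%). With median-of-ratios scaling none was wholly higher, against 3.97% of tested genes. Actn2 was wholly higher after radiotherapy with quantile normalization, as were 5.21% of tested genes, and after that removal, as were 8.61%.

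**Figure D1:**
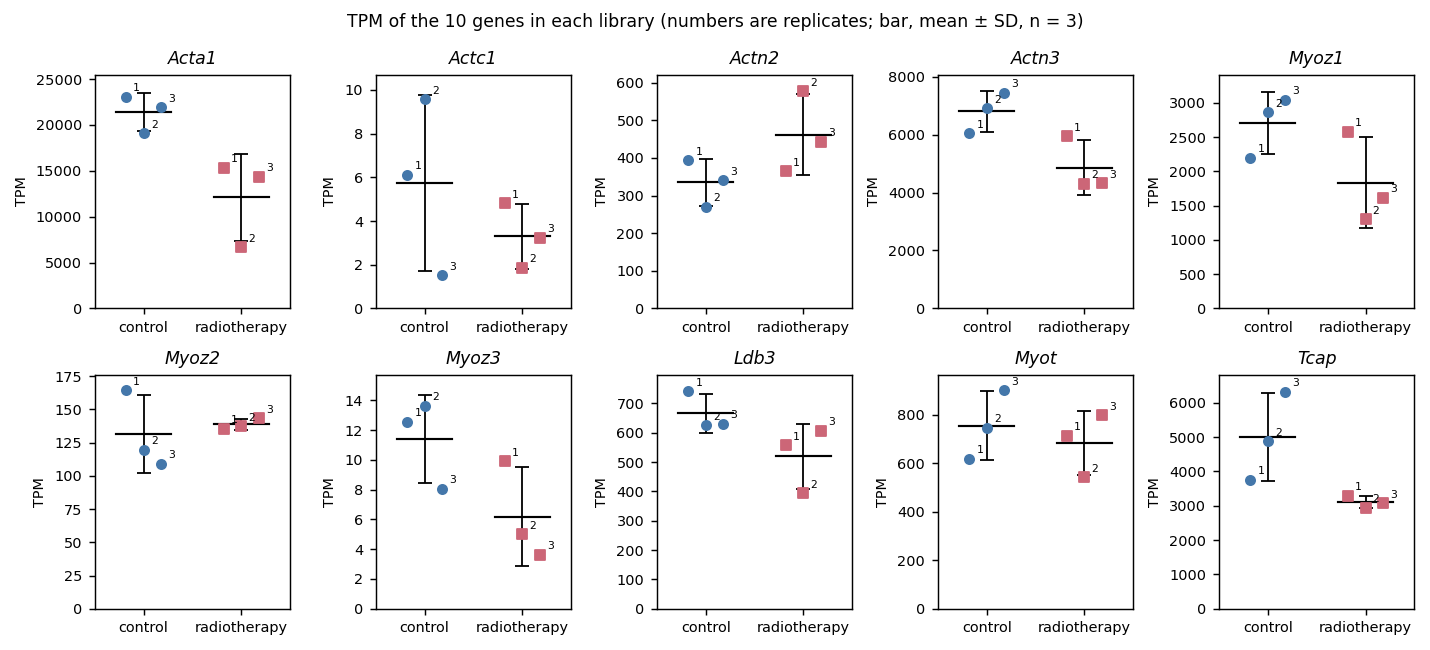
TPM (y axis, linear from 0) of the 10 genes in 3 control (circles) and 3 radiotherapy (squares) libraries, with replicate numbers beside the points and bars for mean ± SD. Acta1, Actn3, Ldb3 and Tcap show no overlap between the groups, and radiotherapy 2 is the lowest library for 6 of the 10 genes and the highest for Actn2.

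Summed over the 10 genes, transcripts were 3.70%, 3.55% and 4.08% of all TPM in controls 1, 2 and 3, and 2.90%, 1.69% and 2.54% in radiotherapy 1, 2 and 3. The means were 3.78 ± 0.269% and 2.37 ± 0.621% (SD, n = 3 each), and the groups did not overlap. A two-sided exact permutation test gave p = 0.1, the smallest possible with 3 against 3 (0.333 adjusted over 5 shares tested). Outside mitochondrial and predicted genes the members held 4.97%, 5.10% and 5.42% of TPM in the controls and 4.60%, 3.16% and 3.69% after radiotherapy, again without overlap. Acta1 supplied most of the sum, 53.7 to 62.4% of it in controls and 39.4 to 56.6% after radiotherapy. Without Acta1 the other 9 genes were 1.64 ± 0.243% of TPM in controls against 1.16 ± 0.177% in radiotherapy libraries.

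The order of the genes by mean TPM was the same in both groups: Acta1, Actn3, Tcap, Myoz1, Myot, Ldb3, Actn2, Myoz2, Myoz3 and Actc1. Acta1 ranked 12th of all genes in the table by mean TPM. Of neighbours in this order, Myot and Ldb3, and Myoz3 and Actc1, overlapped in both groups. Actn3 and Tcap overlapped in control, and Ldb3 and Actn2 after radiotherapy.

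Acta1, skeletal alpha-actin, the main thin filament protein of adult skeletal muscle, was at 23091, 19091 and 21960.0 TPM in controls 1, 2 and 3. After radiotherapy it was at 15355, 6647 and 14363 TPM. Every radiotherapy library lay below every control, and radiotherapy 2 stood well below the other radiotherapy libraries. Group means were 21381 ± 2062 and 12122 ± 4767 TPM, 1.76-fold lower (log2 fold change −0.91, SE 0.29, 95% interval −1.57 to −0.25; limma adjusted p = 0.977). Without radiotherapy 2 the log2 fold change was −0.52, and after the removal of mitochondrial and predicted genes −0.65. As a share of TPM outside those genes, Acta1 was 2.74 to 3.10% in controls and 1.25 to 2.44% after radiotherapy. Set against the summed TPM of 10 fast fibre genes, which were themselves lower, Acta1 was 15.4%, 13.5% and 16.5% of that sum in controls and 12.4%, 8.58% and 12.7% after radiotherapy, values that did not overlap. The ratio of Acta1 to Actn3 TPM did overlap, at 2.76 to 3.82 in controls and 1.54 to 3.32 after radiotherapy.

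Actc1, cardiac alpha-actin, is the main sarcomeric actin of heart and is co-expressed with Acta1 in embryonic and regenerating skeletal muscle. It was at 6.12, 9.58 and 1.53 TPM in controls and 4.82, 1.86 and 3.23 TPM after radiotherapy. Controls 2 and 3 held the highest and the lowest value, so the groups overlapped fully (log2 fold change −0.48, 95% interval −1.60 to 0.64). The Actc1 share of sarcomeric actin TPM averaged 0.0279 ± 0.0216% in controls against 0.0273 ± 0.00449% (n = 3 each, two-sided exact permutation p = 1). A marker list of cardiac muscle (7 genes, among them Myh6 and Tnnt2) summed to 18.9 to 30.0 TPM in controls and 22.6 to 29.3 TPM after radiotherapy. A list of regenerating muscle (8 genes, among them Myh3 and Myog) summed to 24.2 to 71.3 and 32.1 to 70.6 TPM.

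The actin coding sequences are shown because reads from one can be assigned to the other, which matters most for the rarer gene. The first 120 coding bases, from GENCODE M21 transcripts, are given 5′ to 3′ with the 19 differing bases in capitals.
Acta1: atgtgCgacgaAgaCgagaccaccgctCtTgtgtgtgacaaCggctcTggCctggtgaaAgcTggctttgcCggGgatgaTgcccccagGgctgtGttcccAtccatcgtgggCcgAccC
Actc1: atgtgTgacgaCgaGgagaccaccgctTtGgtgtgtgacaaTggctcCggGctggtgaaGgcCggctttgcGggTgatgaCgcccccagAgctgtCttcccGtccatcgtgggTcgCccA
Over all 1134 coding bases the transcripts were 86.2% identical, and the longest stretch without a difference was 29 bases. The sources used here do not say how shared reads were divided, and with Acta1 TPM at 1993 to 14353 times Actc1 TPM in the same library, the Actc1 values are uncertain. The paired alpha-actinins Actn2 and Actn3 were 74.7% identical over their coding sequence, with a longest identical stretch of 51 bases.

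Actn3, the alpha-actinin of fast glycolytic fibres, was at 6038, 6914 and 7442 TPM in controls and 5944, 4311 and 4322 TPM after radiotherapy. The groups did not overlap, though radiotherapy 1 lay close to control 1. Means were 6798 ± 709 and 4859 ± 940 TPM (log2 fold change −0.50, SE 0.18, limma adjusted p = 0.977). Relative to TPM outside mitochondrial and predicted genes the groups overlapped, at 0.810 to 0.991% and 0.629 to 0.944%.

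Actn2, the alpha-actinin shared by all fibres, had values in the other direction. Control libraries held 394, 271 and 341 TPM, and radiotherapy libraries 365, 576 and 443 TPM. Radiotherapy 2, the lowest library for Acta1 and Actn3, was the highest for Actn2, and radiotherapy 1 lay within the control range. Controls averaged 335 ± 62.0 TPM and radiotherapy libraries 461 ± 107 TPM (log2 fold change 0.45, 95% interval −0.11 to 1.01; limma adjusted p = 0.977). The log2 fold change was positive in all 15 alternative fits, from 0.28 without radiotherapy 2 to 0.70 after the removal of mitochondrial and predicted genes, with limma adjusted p of at least 0.506. Fits that changed only the filter, the trend, the robust setting or the replicate block keep the main value by construction. Their sign was thus fixed in advance.

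The share of Actn3 in sarcomeric alpha-actinin TPM does not depend on the levels of other genes. It was 93.9%, 96.2% and 95.6% in controls and 94.2%, 88.2% and 90.7% after radiotherapy. Radiotherapy 2 and 3 lay below all controls and radiotherapy 1 among them. The means were 95.2 ± 1.23% and 91.0 ± 3.02% (n = 3 each, two-sided exact permutation p = 0.2, 0.333 adjusted over the 5 shares).

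**Figure D2:**
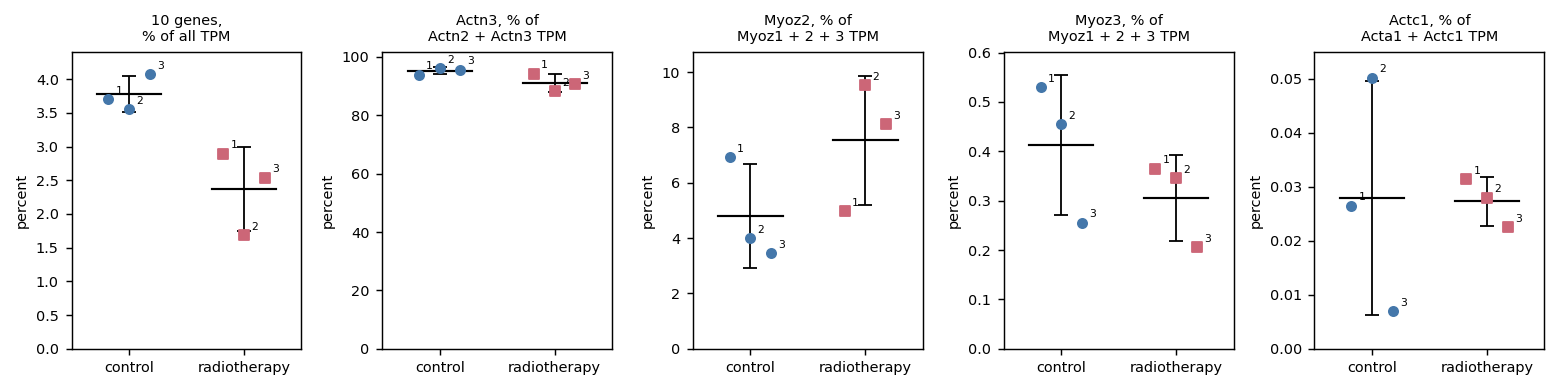
Summed share of the 10 genes in all TPM, and shares of Actn3, Myoz2, Myoz3 and Actc1 within their families (y axes, percent, from 0), with circles for control, squares for radiotherapy and bars for mean ± SD of 3. The summed share separates the groups, while each family share overlaps between them.

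Myozenins, also called calsarcins, tie alpha-actinin to calcineurin. Myoz1, the fast fibre form, was at 2198, 2865 and 3046 TPM in controls and 2580.0, 1301 and 1618 TPM after radiotherapy. Radiotherapy 1 lay above control 1, so the groups overlapped (log2 fold change −0.61, SE 0.27, limma adjusted p = 0.977). Myoz2, the slow and cardiac form, was at 164, 120 and 109 TPM in controls and 135, 138 and 143 TPM after radiotherapy. All radiotherapy values lay between control 1 and control 2, with a log2 fold change of 0.10 (95% interval −0.42 to 0.62). Myoz3, a form of fast fibres that is far less abundant, was at 12.6, 13.7 and 8.07 TPM in controls and 9.93, 4.99 and 3.64 TPM after radiotherapy. Its log2 fold change was −0.86 (SE 0.35), with radiotherapy 1 above control 3.

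Among myozenin transcripts, Myoz2 made up 6.93%, 3.99% and 3.45% in controls and 4.97%, 9.52% and 8.12% after radiotherapy. Means were 4.79 ± 1.87% and 7.54 ± 2.33%, and the groups overlapped through control 1 and radiotherapy 1 (n = 3 each, two-sided exact permutation p = 0.2, 0.333 adjusted). The Myoz3 share averaged 0.413 ± 0.142% in controls against 0.305 ± 0.0864% (n = 3 each, two-sided exact permutation p = 0.3, 0.375 adjusted). Radiotherapy 2 and 3 thus had the lowest Actn3 and the highest Myoz2 shares of the 6 libraries.

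Tcap, telethonin, caps the ends of titin at the Z-disc. It was at 3761, 4886 and 6319 TPM in controls and 3289, 2938 and 3068 TPM after radiotherapy. The controls were spread widely and the radiotherapy libraries lay close together below them. Means were 4989 ± 1282 and 3099 ± 177 TPM, 1.61-fold lower (log2 fold change −0.66, SE 0.21, limma adjusted p = 0.977). The log2 fold change was −0.62 without radiotherapy 2 and −0.47 without control 3, the highest control. Relative to TPM outside mitochondrial and predicted genes, Tcap was 0.505 to 0.841% in controls and 0.447 to 0.551% after radiotherapy, which overlapped.

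Ldb3, also called ZASP or Cypher, binds alpha-actinin through its PDZ domain. It was at 742, 625 and 630.1 TPM in controls and 558, 394 and 607 TPM after radiotherapy. The groups did not overlap, but radiotherapy 3 lay just under control 2 (log2 fold change −0.38, 95% interval −0.88 to 0.13). The value was −0.12 after the removal of mitochondrial and predicted genes. Myot, myotilin, which binds alpha-actinin and filamin, was at 617, 745 and 899.6 TPM in controls and 712, 541 and 797 TPM after radiotherapy. Its groups overlapped almost fully (log2 fold change −0.14, SE 0.23), and it lay close to the median of all tested genes under each scaling. Its difference from that median was −0.03 with deposited TPM, 0.04 with quantile normalization and 0.02 after the removal of those genes.

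**Figure D3:**
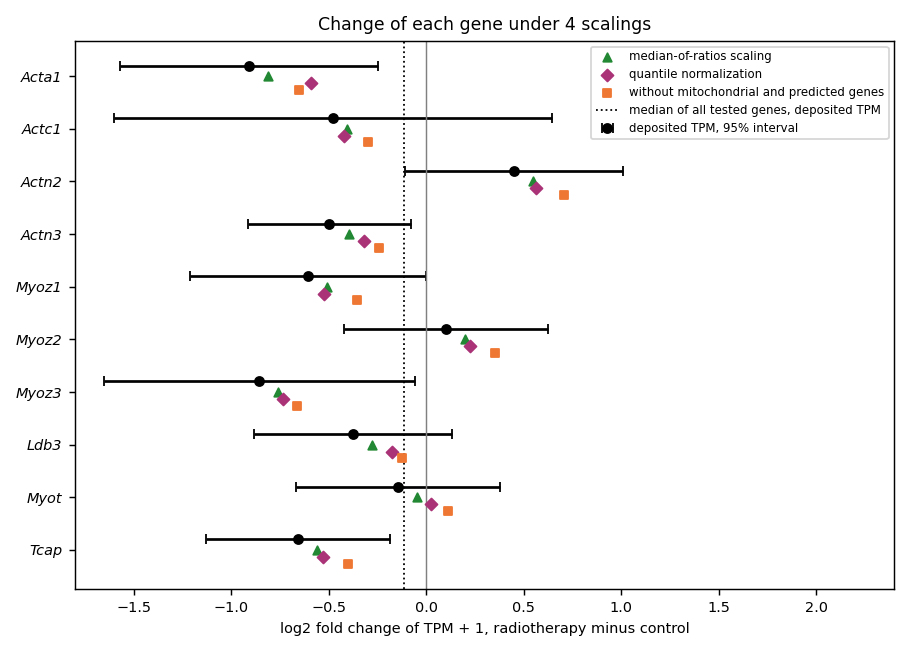
Log2 fold change of each gene (x axis, radiotherapy minus control, log2 of TPM + 1) with its 95% interval from limma, and the values under 3 other scalings. Acta1, Tcap, Myoz1, Myoz3 and Actn3 have intervals below 0 with deposited TPM, each of the other scalings moves every gene toward higher values, and the dotted line is the median of all tested genes (−0.11).

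Single libraries moved several of these values. Radiotherapy 2 was the lowest library for 6 of the 10 genes and control 3 the highest for 4. Leaving out each library in turn kept the log2 fold change negative for Acta1 (−1.13 to −0.52), Actn3 (−0.65 to −0.42), Tcap (−0.84 to −0.47), Myoz1 (−0.88 to −0.39), Myoz3 (−1.21 to −0.59), Ldb3 (−0.50 to −0.19) and Actc1 (−1.07 to −0.04). It kept Actn2 positive (0.28 to 0.61). For Acta1, Actn3, Tcap and Ldb3, whose groups did not overlap, leaving out a library could not change the sign. The kept sign is thus no test for these genes. Myoz2 turned to −0.02 without control 3 and Myot to 0.02 without radiotherapy 2. The median of the 10 genes was −0.30 without radiotherapy 2, when the median of all tested genes was −0.01.

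**Figure D4:**
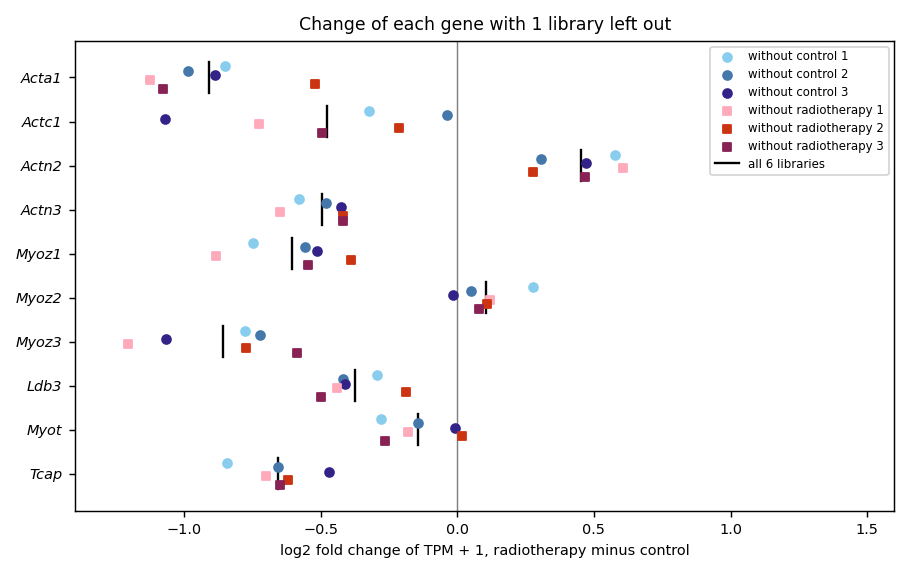
Log2 fold change of each gene (x axis, radiotherapy minus control, log2 of TPM + 1) with all 6 libraries (vertical bar) and with 1 library left out (symbols). Acta1 moves from −0.91 to −0.52 without radiotherapy 2, and Myoz2 and Myot cross 0.

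Other genes of the Z-disc and thin filament are summarised by list, with the 3 genes of smallest p named in each, and 0 genes of any list passed limma over all genes tested. Among 17 tested Z-disc partners, 11 were negative (9 after the removal of mitochondrial and predicted genes), with a median of −0.24. Over all tested genes, 67.9% were negative with deposited TPM and 35.3% after that removal, which moved the median of all genes from −0.11 to 0.09. The shares under median-of-ratios scaling and quantile normalization were 56.0% and 52.3%. Csrp3, the muscle LIM protein, was higher on average, at 414, 70.6 and 242 TPM in controls and 363, 388 and 672 TPM after radiotherapy (log2 fold change 1.24, SE 0.56). Its groups overlapped, with control 2 far below the rest. Capza2, a subunit of the capping protein that ends actin filaments at the Z-disc, gave −0.93 (SE 0.39) on the same scale, and the PDZ-LIM gene Pdlim7 gave −0.70 (SE 0.31).

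Of 13 thin filament and actin turnover genes, 10 were negative (median −0.32), and 8 under each of the other scalings. Tmod1, which caps the pointed ends of thin filaments, was at 70.9, 69.2 and 75.4 TPM in controls and 55.5, 36.2 and 51.7 TPM after radiotherapy. Those groups did not overlap (log2 fold change −0.60, SE 0.24). Tmod4, its skeletal muscle relative, gave −0.38 (SE 0.21), and the actin-binding Cap2 gave −0.58 (SE 0.28), also without overlap. With deposited TPM, 3 of the 13 genes were lower without overlap, against 7.54% of all tested genes. Overlap of these genes under the other scalings is not given. Genes of the calcineurin pathway, which myozenins bind, had a median of −0.36 over 10 genes, 9 of them negative, or 7 after the removal of mitochondrial and predicted genes. Rcan2, a calcineurin regulator, gave −0.64 (SE 0.32), and the calcineurin-regulated factors Nfatc1 and Nfatc2 gave −0.50 and −0.42.

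The 8 regulators of the SRF and MEF2 group, which drive actin and other muscle genes, were all negative with deposited TPM (median −0.34), against 67.9% of all tested genes, and 6 were after the removal of mitochondrial and predicted genes, against 35.3%. Srf was at 25.7, 18.9 and 22.8 TPM in controls and 11.1, 6.53 and 18.2 TPM after radiotherapy. The groups were separate, with radiotherapy 3 just under control 2 (log2 fold change −0.95, SE 0.35, limma adjusted p = 0.977). Smyd1, a muscle methyltransferase needed for sarcomere assembly, was separate as well (−0.66, SE 0.26), and Mef2c gave −0.72 (SE 0.39) with overlap. With deposited TPM, 3 of the 8 regulators were lower without overlap, against 7.54% of all tested genes. Overlap of the regulators under the other scalings is not given. The cytoplasmic and smooth muscle actins and the non-muscle actinins overlapped between the groups in each of 5 tested genes, where 7.54% of all tested genes were lower and 1.7% higher without overlap. Actg2, a smooth muscle actin of the same list, did not reach 1 TPM in 3 libraries and was not tested. Its low values did not overlap, at 0.34, 0.22 and 0.43 TPM in controls and 3.08, 2.13 and 0.98 TPM after radiotherapy. Log2 fold changes were 0.38 for Acta2, −0.47 for Actg1 and −0.35 for Actb. The last 2 were highest in control 1, the library with the most leukocyte transcripts, and a link between these was not tested.

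Log2 fold changes were mostly negative for fast fibre genes and mostly positive for slow fibre genes, and 0 of either list passed limma over all genes tested. The fast fibre list had a median of −0.49, equal to that of the 10 genes at 2 decimals, with 8 of 10 negative (7 with quantile normalization or the removal of mitochondrial and predicted genes). The fast myosins Myh1 and Myh2 were the exceptions, at 0.54 and 0.61. The calcium pump Atp2a1 gave −0.69, the light chain Mylpf −0.49 and parvalbumin, Pvalb, −0.88. The slow fibre list had a median of 0.37, with 8 of 9 positive (9 under each of the other scalings) and values of 0.79 for Myh7b, 0.66 for Myh7 and 0.53 for Tpm3. The summed slow fibre TPM still overlapped between groups, at 2665, 1535 and 939 in controls 1, 2 and 3. After radiotherapy it was 2297, 2054 and 1806 in libraries 1, 2 and 3. Control 1 thus lay above every radiotherapy library, and control 3 was the lowest of all.

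**Figure D5:**
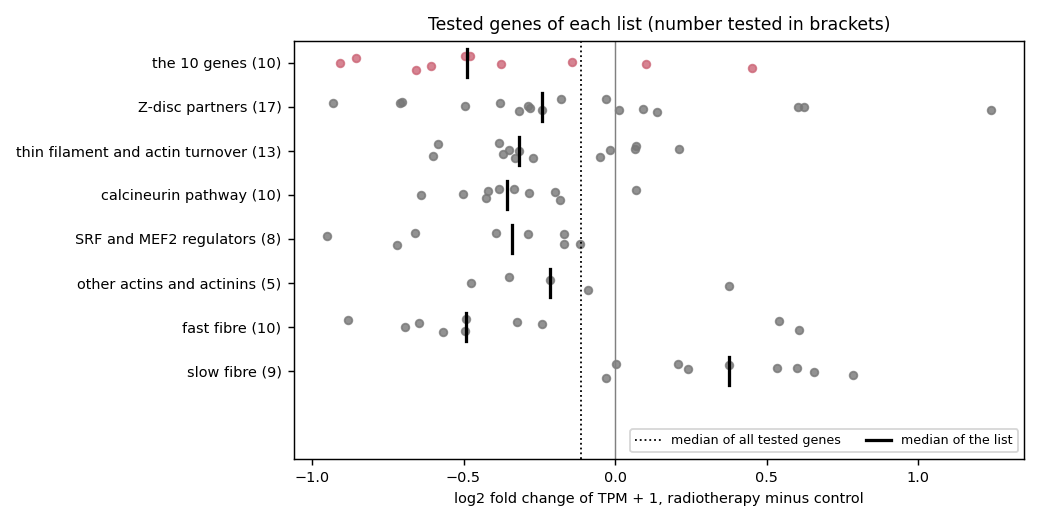
Log2 fold change (x axis, radiotherapy minus control, log2 of TPM + 1) of each tested gene, 1 point a gene, in the 10 genes and 7 lists, with black bars for list medians. The fast fibre median and that of the 10 genes are −0.49, the slow fibre median is 0.37 and the median of all tested genes is −0.11.

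Genes whose pattern over the 6 libraries was most like that of Acta1 were ranked by Pearson's r of log2(TPM + 1) among 4649 other named genes with a mean of at least 10 TPM. The 5 highest were Mettl22 (r = 0.996), Tuba4a (r = 0.996), Insig2 (r = 0.995), Rnf7 (r = 0.994) and Cyb5r1 (r = 0.993). Tuba4a, an alpha-tubulin, was at 1099, 1034 and 1146 TPM in controls and 871, 511 and 860 TPM after radiotherapy. For Actc1 the 5 were Nr4a1 (r = 0.97), Tnk2 (r = 0.96), Nudt4 (r = 0.95), Gm48584 (r = 0.95) and Gm9747 (r = 0.94). Nr4a1, an immediate early nuclear receptor, was at 99.4, 136 and 16.5 TPM in controls and 43.0, 20.5 and 42.2 TPM after radiotherapy. With 6 libraries, shared TPM scaling and this many genes ranked, these values only describe likeness in these samples.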

How the data were processed

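RNA sequencing libraries of gastrocnemius (TruSeq RNA kit, total RNA, per the labels' protocols) were deposited as 1 table of TPM values for 57010 genes, 1 column per sample. HISAT2, StringTie, RSEM and build mm9 are named in the submitters' processing notes; the sources used here give no versions, roles, annotation release, strand setting or filters. The deposited TPM columns each sum to 1000000 within 1, so depth, counting intervals and detection limits are unknown. In GENCODE M21, Acta1 and Actc1 each overlap a gene on the other strand. Without strand information, reads from the stretch shared by a gene and its overlapping neighbour may not be told apart.

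Samples were grouped by title. Genes reaching 1 TPM in 3 or more of the 6 samples (11375, all 10 members among them) were tested on log2(TPM + 1), a pseudocount of 1 that understates changes of low genes, with limma 3.58.1 in R 4.3.3 (trend, two-sided, group only, Benjamini-Hochberg, threshold 0.05). The script of this test was also checked on simulated data, from which no value is given. For shares, two-sided exact permutation tests were used (scipy 1.17.1) with adjustment over 5. Named genes were all members, the 3 of smallest p per pathway or fibre list, and the 5 most like Acta1 and Actc1; Tuba4a and Nr4a1 were given values after those were seen. Members and lists were chosen with earlier results of these data known. Alternatives were 3 scalings, a pseudocount of 0.1, a filter at 5 TPM or none, limma without trend, robust limma, a replicate block and each sample left out; counts of members by setting were added after seeing the data. No 2 libraries were duplicates (at most 3.35% of values equal to 2 decimals). Figures used matplotlib 3.10.9. Protein sequences were not used here.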

Additional observations from a re-analysis of the deposited data

How the results depend on the processing

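No member passed an adjusted p of 0.05 in any of 15 alternative fits, and limma called 0 genes in all of these fits except that without control replicate 1, where 6 genes passed, 0 of them members; at an unadjusted p under 0.05 the main fit had 435 genes. Of 149 member values under alternatives, 4 changed sign: the log2 fold change of Myot to 0.0222 with quantile normalization, to 0.109 without mitochondrial and predicted genes and to 0.0154 without radiotherapy replicate 2 (range −0.279 to 0.0154 with 1 sample left out), and that of Myoz2 to −0.0166 without control replicate 3 (range −0.0166 to 0.276). Under the first and the second of these settings the median of all tested genes moved too, from −0.11 to −0.01 and to 0.09, and Myot lay within 0.0359 of it. For the samples left out the cause was not tested. Many of the 149 values could not change sign. Fits that changed only the filter, the trend, the robust setting or the block repeat the main log2 fold change by construction. Leaving out a sample cannot turn the sign of Acta1, Actn3, Ldb3 or Tcap, whose groups did not overlap. The number of members lower without overlap was 4, against 1 with median-of-ratios scaling, 0 with quantile normalization and 1 without mitochondrial and predicted genes. The scaled values differ by construction in what each library is divided by. With 1 sample left out the number was 4 to 6. Leaving out a sample cannot make separate groups overlap, so this number could not fall below 4 and does not test the count. The number of members with a negative log2 fold change was 7 to 9. The difference of the Actc1 share of sarcomeric actin, −0.000593 percentage points, ranged from −0.0110 to 0.0105 with 1 sample left out and was 0.36 as a log2 ratio, so it has no stable sign. The summed share and the other family shares kept their direction in each alternative run. For the summed share, whose groups did not overlap, leaving out a sample could not change the direction.

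With the replicate number as a block, limma called 0 genes and left 4 of the 10 members lower at an unadjusted p under 0.05, against 5 without it. Without the block, 3 members were lower at that p in limma without trend, 1 with no filter, and 2 to 5 with 1 sample left out. Of all tested genes, 434, 862 and 201 to 946 had such a p in either direction in those fits. Same-numbered samples did not deviate together (r across genes of −0.06, 0.02 and −0.11), and no sample correlated best with its own number, so the numbers were not taken as pairs. TPM keeps no depth, so the precision of the low genes Actc1 and Myoz3 is unknown.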
